A study of Mus musculus with 16 samples.

Results

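The genes for subunits of the nicotinic acetylcholine receptor were followed in ear skin of 8 male mice of the inbred strain C57BL/6J, for which the labels name no transgene and no treatment. The members, 10 of the 45706 genes in the deposited table, were taken by gene symbol: the 5 muscle-type subunits Chrna1, Chrnb1, Chrnd, Chrne and Chrng and the 5 neuronal-type subunits Chrnb4, Chrna3, Chrna5, Chrna7 and Chrnb2. Each mouse gave an ear clip from the first ear at nominally 24 months (exact ages 23.8 to 24.4 months) and from the second ear at nominally 30 months (29.0 to 30.1 months), so 16 libraries form 8 within-animal pairs. Because the second clip always came from the other ear of an animal already clipped, age cannot be told apart from the ear and the order of sampling. The mice are named by their numbers (13, 14, 21, 29, 43, 50, 64 and 75). The members were selected with the change between ages in these same libraries in view, so their differences between 24 and 30 months are given as a description. Where a fit over all genes called members, the number is set beside the share of all genes, and it is not support for a difference.

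The nicotinic receptor is a ring of subunits around a cation channel that opens when acetylcholine binds. At the neuromuscular junction the adult receptor of skeletal muscle is built from the products of Chrna1, Chrnb1, Chrnd and Chrne, and Chrng takes the place of Chrne in fetal and denervated muscle. Neuronal-type receptors of autonomic ganglia and brain combine alpha subunits (Chrna3, Chrna5) with beta subunits (Chrnb2, Chrnb4), or form from the alpha subunit Chrna7 alone. They are also found outside the nervous system: keratinocytes make acetylcholine and carry neuronal-type receptors. The ear clip spans skin on both faces, cartilage and thin sheets of striated muscle.

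Each library held 22967222 to 36162431 reads that fell on genes. Levels are given as CPM, the reads on a gene scaled to a common library size after TMM normalization, and levels of different genes are compared only as RPKM, the CPM per kilobase of exon. At 24 months the library of mouse 43 held the most skeletal muscle RNA: the summed level of 20 muscle marker genes was 17390 CPM there and 1560 to 13350 CPM in the other libraries. The 30-month libraries of mice 29 and 50 stood apart in other ways, with 699.6 CPM of fat cell markers in mouse 29 (64.5 to 309.3 CPM elsewhere) and 10670 CPM of fibroblast markers in mouse 50 (2435 to 6146 CPM elsewhere). The 30-month library of mouse 13 lay outside the others for Schwann cell markers (760.4 CPM, 502.3 to 677.3 elsewhere) and, by smaller margins, for both keratinocyte lists, cartilage and macrophages. Values without each mouse are therefore given beside the changes they move. In bulk tissue, fewer cells of a type and less RNA per cell cannot be told apart.

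Per length, the muscle-type subunits Chrne, Chrnb1 and Chrna1 had the highest levels of the family, at 3.51 ± 2.17, 3.10 ± 1.41 and 3.04 ± 1.58 RPKM (mean ± SD, n = 16 libraries). These 3 did not separate: Chrne was above Chrnb1 in 11 of 16 libraries, and Chrnb1 above Chrna1 in 7 of 16. Chrnd followed at 1.20 ± 0.627 RPKM and was below Chrna1 in 16 of 16 libraries and above Chrnb4 in 14. Among the neuronal-type subunits Chrnb4 came first over both ages, at 0.662 ± 0.301 RPKM, then Chrnb2 at 0.396 ± 0.0641 RPKM, with Chrnb4 above Chrnb2 in 13 of 16 libraries. The exceptions were all at 30 months. In mice 29, 43 and 50 Chrnb4 then had 0.287, 0.330 and 0.262 RPKM and Chrnb2 0.399, 0.431 and 0.583 RPKM. Chrna3, the alpha subunit that pairs with Chrnb4 in ganglia, was at 0.0848 ± 0.0411 RPKM, and its range did not reach that of Chrnb2. The lowest members were Chrna7, Chrng and Chrna5, at 0.0396 ± 0.0200, 0.0325 ± 0.0129 and 0.0295 ± 0.0217 RPKM, and they did not separate, with Chrna7 above Chrng in 10 and Chrng above Chrna5 in 9 of 16 libraries.

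**Figure D1:**
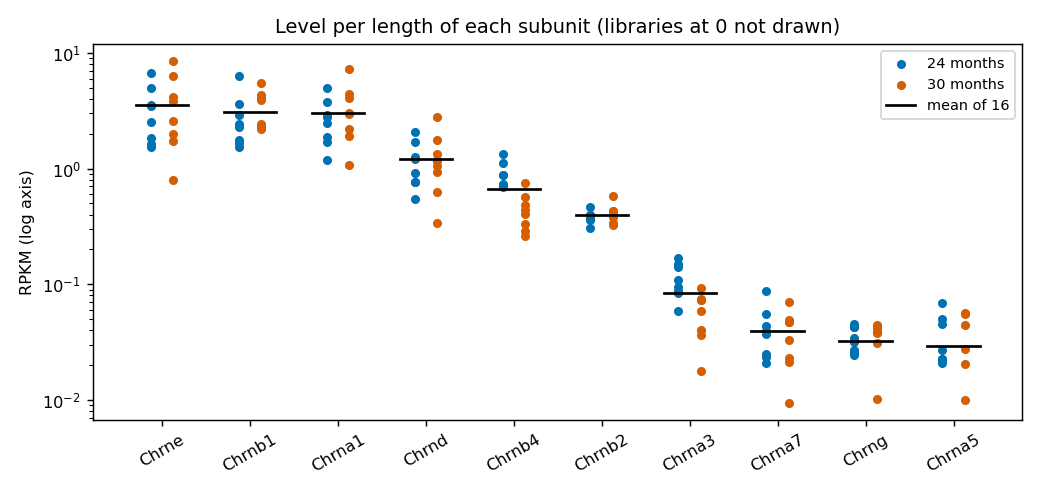
Level per length of the 10 subunits in RPKM on a log axis, 1 point per library, blue for 24 months and orange for 30 months, with a bar at the mean of 16 libraries; libraries at 0 are not drawn. Chrne, Chrnb1 and Chrna1 overlap near 3 RPKM, and Chrnb4 is the highest neuronal-type subunit at a mean of 0.662 RPKM.

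Of the 10 members, 7 passed the filter on low counts and entered the fit over 21526 genes (edgeR quasi-likelihood with a term for each mouse). Chrng, Chrna5 and Chrna7 did not pass. At a Benjamini-Hochberg adjusted p under 0.05, edgeR called 0 of the 7 members, where the share called among all genes was 0%. Over all 21526 genes, 2593 had an unadjusted p under 0.05. DESeq2's Wald test called 1 member, Chrnb4, of the 6 to which it gave an adjusted p, and 1.38% of the 17352 genes. The CPM was lower at 30 months in all 8 mice for 1 of the 7 members, again Chrnb4, and for 1.69% of all genes tested; it was higher in all 8 mice for 0 members and 1.08% of genes. The members were chosen on this contrast, so nothing is read from these shares. The median log2 fold change (30 months over 24 months) was 0.07 over the 7 members and 0.01 over all genes tested.

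Chrnb4, the beta subunit of the ganglionic receptor, was the member that differed most between the ages, and it was lower at 30 months in every mouse. At 24 months its lowest, median and highest levels were 2.57, 3.0 and 5.0 CPM, and at 30 months 0.976, 1.56 and 2.80 CPM. The age groups overlapped only through mouse 14, whose 30-month level of 2.80 CPM lay above the lowest 24-month levels and which also had the highest level at 24 months. Within mice the log2 change ran from -1.62 to -0.55, with a mean of -1.05 ± 0.38 (SD, n = 8 mice). The fitted log2 fold change was -1.04 ± 0.14 (SE), a level at 30 months of 0.487 times that at 24 months, and it lay between -1.11 and -0.95 when each mouse was left out. Over all libraries of an age, 782 reads were counted on Chrnb4 at 24 months, or 3.27 CPM of all gene reads (95% exact Poisson interval 3.04 to 3.50), and 380 at 30 months, or 1.65 CPM (1.48 to 1.82). Such intervals cover counting error only.

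Chrna3, the alpha subunit encoded next to Chrnb4, was lower at 30 months in 7 of 8 mice. Its levels had a minimum, median and maximum of 0.311, 0.534 and 0.886 CPM at 24 months and of 0.0945, 0.348 and 0.484 CPM at 30 months, so the groups overlapped. Mouse 43 was the exception, with 0.439 CPM at 24 months and 0.484 CPM at 30 months. The fitted log2 fold change was -0.93 ± 0.26 (SE) and lay between -1.09 and -0.81 without each mouse in turn. These levels rest on 3 to 25 reads per library, 138 reads in all at 24 months and 70 at 30 months. The ratio of Chrna3 to Chrnb4 per length had a median of 0.127 over the 16 libraries and was higher at 30 months in 4 mice and lower in 4, with a mean log2 change of 0.04 ± 0.81 (SD, n = 8).

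**Figure D2:**
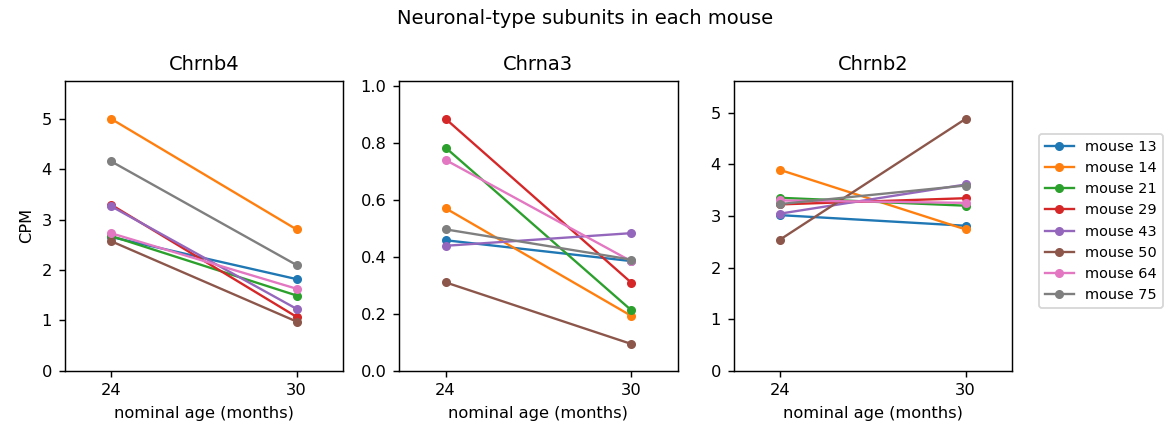
CPM of Chrnb4, Chrna3 and Chrnb2 at nominally 24 and 30 months, 1 line per mouse, axes starting at 0. All 8 lines of Chrnb4 and 7 of 8 of Chrna3 run downwards, whereas 4 of Chrnb2 run upwards and mouse 50 reaches 4.88 CPM.

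Chrnb2, the beta subunit of the main high-affinity receptor of the brain, had no common direction between the ages. The lowest, median and highest levels were 2.54, 3.23 and 3.89 CPM at 24 months and 2.74, 3.30 and 4.88 CPM at 30 months. The level was higher in 4 mice and lower in 4, and its spread between libraries was the narrowest among the fitted subunits, with the highest library at 1.92 times the lowest. The fitted log2 fold change was 0.09 ± 0.15 (SE) and became -0.03 without mouse 50. Exons of Adar on the opposite strand cover 1365 bases, or 16.3%, of the Chrnb2 exons, and the library kit does not mark strand, so reads from the shared bases cannot be told apart. The exons of the other 9 members shared no base with another gene of the table in the annotation.

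Chrna7, whose product forms receptors from a single kind of subunit, had 3 to 11 reads per library at 24 months (44 in all) and 1 to 10 at 30 months (40 in all). That is 0.184 CPM of all gene reads (exact Poisson interval 0.134 to 0.247) and 0.173 CPM (0.124 to 0.236). Chrna5, an accessory subunit, had 0 to 6 reads per library at 24 months (24 in all) and 0 to 5 at 30 months (20 in all), or 0.100 CPM (0.0642 to 0.149) and 0.0866 CPM (0.0529 to 0.134). For both genes the level was higher in 4 mice and lower in 4, and the intervals of the ages overlapped.

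Chrnb4, Chrna3 and Chrna5 lie side by side on chromosome 9 of GRCm38: Chrnb4 at chr9:55028154-55048779 and Chrna3 at chr9:55010111-55026562 on the minus strand, and Chrna5 at chr9:54980880-55007779 on the plus strand. Chrna7 lies at chr7:63098692-63212569 and Chrnb2 at chr3:89746195-89764632, both on the minus strand. The 4 neighbouring genes fixed as a list did not pass edgeR's test, which called 0% of all genes tested. Psma4, a proteasome subunit, had a log2 fold change of 0.07 ± 0.07 (edgeR adjusted p = 0.67), Ireb2, a regulator of iron metabolism, -0.0035 ± 0.07 (adjusted p = 0.988) with a sign that turned between fits, and Adamts7, a secreted protease, 0.20 ± 0.17 (adjusted p = 0.649). Hykk had a log2 fold change of -0.21 ± 0.16 (edgeR adjusted p = 0.609) and was lower at 30 months in 6 mice and higher in 2. Its log2 fold change lay between -0.31 and -0.11 when each mouse was left out. The median of the list was 0.03, beside 0.01 for all genes tested.

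The 250 bases before the RefSeq start of Chrnb4 and Chrna3 are shown because these neighbours were the members with the lowest fold changes. They are RefSeq sequences of build GRCm38.p6, printed 5′ to 3′ on the strand of the gene, and capitals mark E-boxes (CANNTG, on either strand), the motif of basic helix-loop-helix factors. The Chrnb4 window is chr9:55048545-55048794 and that of Chrna3 chr9:55026563-55026812, both on the minus strand.
Chrnb4: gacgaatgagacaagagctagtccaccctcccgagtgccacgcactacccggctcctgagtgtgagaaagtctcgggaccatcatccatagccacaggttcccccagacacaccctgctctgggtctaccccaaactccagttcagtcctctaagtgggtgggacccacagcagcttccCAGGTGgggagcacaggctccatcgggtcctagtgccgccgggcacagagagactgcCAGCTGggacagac
Chrna3: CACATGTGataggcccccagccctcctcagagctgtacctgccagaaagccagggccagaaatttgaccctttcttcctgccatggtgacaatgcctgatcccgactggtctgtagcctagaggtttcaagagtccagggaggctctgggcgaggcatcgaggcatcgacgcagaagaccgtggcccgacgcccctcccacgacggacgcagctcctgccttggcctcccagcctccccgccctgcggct
The Chrnb4 window held 2 E-boxes, which began 71 and 14 bases before the start, the second of them of the form CAGCTG. The Chrna3 window held 2 overlapping E-boxes at its far end, 250 and 248 bases before the start, and 1 GC box (GGGCGG on either strand) 13 bases before it. At least 1 E-box was found in 66.2% of the 32851 windows of the same length in the table, CAGCTG (a subset of these) in 13% and GC boxes in 32.7%.

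Levels of other cell types were set beside Chrnb4. The noradrenaline enzyme Dbh, which marks sympathetic neurons, was at 0 in 15 of 16 libraries with 1 read in the remaining one, and the neuronal RNA-binding protein gene Elavl4 was at 0 in 9. Other listed markers were counted in all 16 libraries: Th, a second enzyme of noradrenaline synthesis, at 0.0656 to 8.82 CPM, Stmn2 at 4.76 to 17.8 CPM, Tubb3 at 1.61 to 4.52 CPM, Prph at 0.303 to 1.16 CPM and Nefh at 0.310 to 1.10 CPM. Over the whole list of 13 neuron markers the summed level was 12.7 to 21.1 CPM at 24 months (median 17.1) and 10.1 to 21.6 CPM at 30 months (median 15.4). Of its 6 tested markers 4 had a higher fitted value at 30 months and 2 a lower one. The mean log2 level of these 6, and not the sum, changed by 0.18 ± 0.40 (SD, n = 8) and was higher in 5 of 8 mice. The log2 level of Chrnb4 had a Pearson correlation of -0.42 (Spearman -0.42) with these markers over the 16 libraries, with 0.06 within the 24-month and -0.57 within the 30-month libraries. Of the 15 marker lists, 3 had every tested member at a lower fitted value at 30 months. The 6 cartilage markers summed to 106.7 to 198.1 CPM at 24 months and 85.9 to 141.0 CPM at 30 months. Their mean log2 level changed by -0.50 ± 0.53 (SD, n = 8) and was lower in 6 of 8 mice. The 5 pigment cell markers summed to 76.3 to 158.7 CPM and 27.2 to 101.6 CPM, and their mean log2 level changed by -0.54 ± 0.87, lower in 7 of 8 mice. The 6 basal keratinocyte markers summed to 11390 to 14770 CPM and 8553 to 16920 CPM, and their mean log2 level changed by -0.16 ± 0.36, lower in 6 of 8 mice. In edgeR, 4 of 6 cartilage, 1 of 5 pigment cell and 1 of 6 basal keratinocyte markers had an unadjusted p under 0.05. Over all genes tested 7.18% did so with a lower value. DESeq2 called 1 cartilage marker, 0 pigment cell and 0 basal keratinocyte markers, and 1.38% of all its genes. The 3 lists were picked for their direction, so nothing is read from these shares. Over the 16 libraries the log2 level of Chrnb4 had a Pearson correlation of 0.57 (Spearman 0.52) with the basal keratinocyte markers, 0.41 (0.16) with the cartilage markers and 0.36 (0.09) with the pigment cell markers. Within an age the first was 0.58 at 24 months and 0.51 at 30 months, the cartilage value was -0.18 and 0.21, and the pigment cell value -0.51 and 0.13. The endothelial markers, which had a higher fitted value at 30 months for all 5 genes and summed to 90.7 to 123.6 CPM and 94.6 to 259.4 CPM, had a correlation of -0.57 (Spearman -0.31), with 0.35 within the 24-month and -0.49 within the 30-month libraries. All values of a library share its depth and scaling. The part of these cell types in the level of Chrnb4 was not tested.

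The 5 genes whose log2 CPM was most like that of Chrnb4 over the 16 libraries were Jmjd8, Clcn4, Gm11611, Tmem35a and Neu3, with Pearson correlations of 0.90, 0.90, 0.90, 0.89 and 0.89. Clcn4, Gm11611, Tmem35a and Neu3 were lower at 30 months in all 8 mice and Jmjd8 in 7, so the shift between ages is part of these values. Within the 24-month libraries the correlations were 0.69, 0.86, 0.72, 0.67 and 0.29 in the same order, and within the 30-month libraries 0.94, 0.73, 0.78, 0.77 and 0.81.

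The wider cholinergic system was described with 7 lists of 55 genes, of which 47 were tested. No gene of these lists passed edgeR's test at an adjusted p under 0.05 in either direction (0 higher and 0 lower), and unadjusted p-values under 0.05 were found for 0 with higher and 4 with lower fitted values. The 4 are 8.51% of the 47, close to the 7.18% of all genes tested with a lower value, while the share with a higher value was 4.86% over all genes. DESeq2's Wald test called 2 of the 36 to which it gave an adjusted p, Tmem35a and Ache, both lower, or 5.56%. Over all its genes it called 1.38% in either direction and 0.934% as lower. The lists were chosen with earlier results of these data known, so nothing is read from these shares. The median log2 fold change was 0.03 over the 47 genes and 0.01 over all genes tested.

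Tmem35a (NACHO), an endoplasmic reticulum chaperone needed to assemble neuronal-type nicotinic receptors, was lower at 30 months in 8 of 8 mice. Its lowest, median and highest levels were 11.5, 14.8 and 20.6 CPM at 24 months and 4.27, 7.23 and 13 CPM at 30 months, with overlapping groups. The log2 fold change was -0.97 ± 0.17 (SE), with an edgeR adjusted p of 0.15. The adjusted p lay between 0.0974 and 0.432 over the edgeR alternatives, and DESeq2 gave 7.41e-05. Mouse 64 had the smallest difference, from 11.6 to 10.2 CPM.

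Ache, the esterase that breaks acetylcholine down, was also lower in 8 of 8 mice. Its lowest, median and highest levels were 43.6, 58.0 and 78.4 CPM at 24 months and 19.0, 37.4 and 52.1 CPM at 30 months, and the groups overlapped. The log2 fold change was -0.64 ± 0.16 (SE), with an edgeR adjusted p of 0.236, 0.132 to 0.521 over the edgeR alternatives and 0.019 with DESeq2. Mice 13 and 14 differed little, from 52.6 to 50.1 CPM and from 54.9 to 52.1 CPM. Of the other genes for handling acetylcholine, the choline transporter Slc44a1 had a log2 fold change of 0.02 ± 0.07 (edgeR adjusted p = 0.916) and the second esterase Bche -0.09 ± 0.12 (adjusted p = 0.786). Chat, which makes acetylcholine, and Slc18a3 and Slc5a7, which load it into vesicles and return choline to nerve endings, did not pass the filter and averaged 0.0589, 0.00662 and 0.0631 CPM.

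Lypd6, a membrane-anchored Ly6 protein, was picked after its values were seen as the remaining listed gene that was lower in 8 of 8 mice. Its lowest, median and highest levels were 8.78, 9.94 and 14.4 CPM at 24 months and 4.76, 8.06 and 11.1 CPM at 30 months. The log2 fold change was -0.45 ± 0.14 (SE), with an edgeR adjusted p of 0.288 and, with DESeq2, of 0.12. The receptor chaperones and Ly6 modulators as a list had 9 tested members of 10, 6 with a higher and 3 with a lower fitted value, and a median of 0.07. The keratinocyte-secreted peptides Slurp1 and Slurp2 had log2 fold changes of 0.07 ± 0.15 (edgeR adjusted p = 0.862) and 0.04 ± 0.08 (adjusted p = 0.864), and Lypd6b 0.10 ± 0.09 (adjusted p = 0.663).

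**Figure D3:**
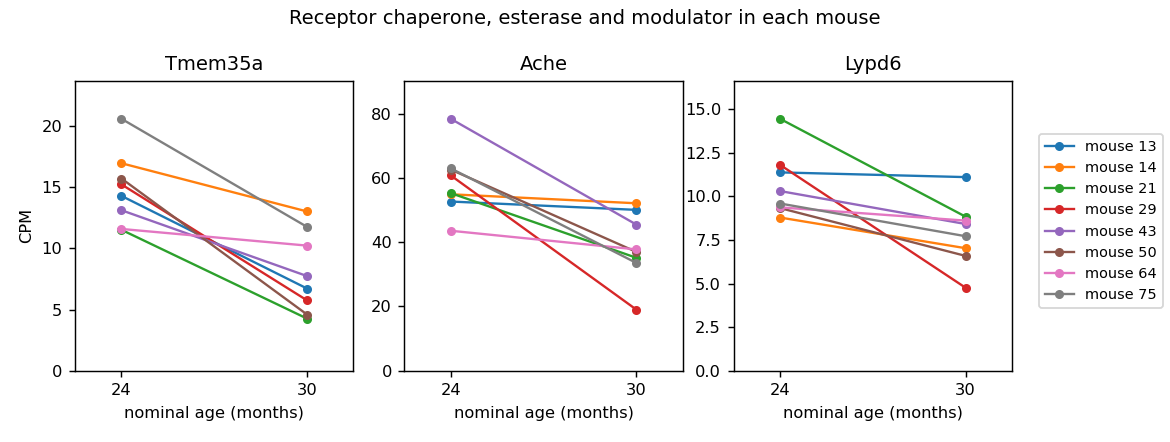
CPM of Tmem35a, Ache and Lypd6 at nominally 24 and 30 months, 1 line per mouse, axes starting at 0. All 8 lines run downwards in each panel, while the groups overlap, for Tmem35a between 11.5 and 13 CPM.

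The remaining nicotinic receptor genes had few reads. Of the 6 other nicotinic subunits only Chrna4 and Chrna10 passed the filter, with log2 fold changes of -0.27 ± 0.30 (edgeR adjusted p = 0.725) and -0.46 ± 0.50 (adjusted p = 0.72). Chrna9, known from keratinocytes and cochlear hair cells, had 47 reads over the 24-month libraries and 55 over the 30-month libraries, and Chrna6 and Chrnb3 had 1 read each in a single library. All 5 muscarinic receptors, the other class of acetylcholine receptor, passed the filter. Chrm1 averaged 3.21 CPM, and its log2 fold change was 0.18 ± 0.20 (adjusted p = 0.729), Chrm2 had -0.15 ± 0.22 (adjusted p = 0.802) and Chrm3 0.15 ± 0.25 (adjusted p = 0.824). The list's median was -0.07.

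The muscle-type subunits had no common direction between the ages and varied widely between libraries. In GRCm38 they lie at chr2:73563215-73580338 (Chrna1, minus strand), chr11:69784036-69795943 (Chrnb1, minus), chr1:87190607-87200070 (Chrnd, plus), chr11:70614883-70619216 (Chrne, minus) and chr1:87204657-87212694 (Chrng, plus), so Chrnd and Chrng are neighbours. Chrna1, the acetylcholine-binding alpha subunit, ranged from 4.72 to 31.8 CPM over the libraries, a ratio of 6.73. Its lowest, median and highest levels were 5.24, 11.6 and 21.7 CPM at 24 months and 4.72, 13.2 and 31.8 CPM at 30 months, so the groups overlapped throughout. It was higher at 30 months in 5 mice and lower in 3, with log2 changes from -1.43 in mouse 29 to 1.94 in mouse 13. The fitted log2 fold change of 0.23 ± 0.38 (SE) became -0.02 without mouse 13 and 0.47 without mouse 29.

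Chrnb1, the beta subunit, was higher at 30 months in 5 mice and lower in 3. Its lowest, median and highest levels were 3.89, 5.96 and 15.9 CPM at 24 months and 5.62, 8.05 and 14 CPM at 30 months. The highest value at 24 months belonged to mouse 43, the library with the most muscle RNA. The fitted log2 fold change was 0.34 ± 0.31 (SE), 0.15 without mouse 13 and 0.60 without mouse 43.

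Chrnd, the delta subunit, had levels of 1.78, 3.49 and 6.75 CPM (lowest, median, highest) at 24 months and 1.10, 3.65 and 9.15 CPM at 30 months. It was higher in 3 mice and lower in 5, and the fitted log2 fold change of 0.01 ± 0.39 (SE) ran from -0.26 without mouse 13 to 0.27 without mouse 29. Chrne, the adult epsilon subunit, had levels of 2.60, 5.10 and 11.4 CPM at 24 months and 1.34, 5.41 and 14.4 CPM at 30 months, and its spread was the widest among the fitted subunits, with the highest library at 10.7 times the lowest. It was higher in 4 mice and lower in 4, with a fitted log2 fold change of 0.07 ± 0.48 (SE) that ran from -0.24 without mouse 13 to 0.38 without mouse 43. Mice 13, 14 and 21 had higher levels of all 4 genes at 30 months.

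Chrng, the fetal gamma subunit, had 3 to 6 reads per library at 24 months (34 in all) and 0 to 6 at 30 months (30 in all), or 0.142 CPM (exact Poisson interval 0.0984 to 0.198) and 0.130 CPM (0.0877 to 0.185). Over all libraries its reads came to 2.20% of those of Chrne, without correction for length. The level was higher in 4 mice and lower in 4, and the library at 0 was that of mouse 29 at 30 months.

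**Figure D4:**
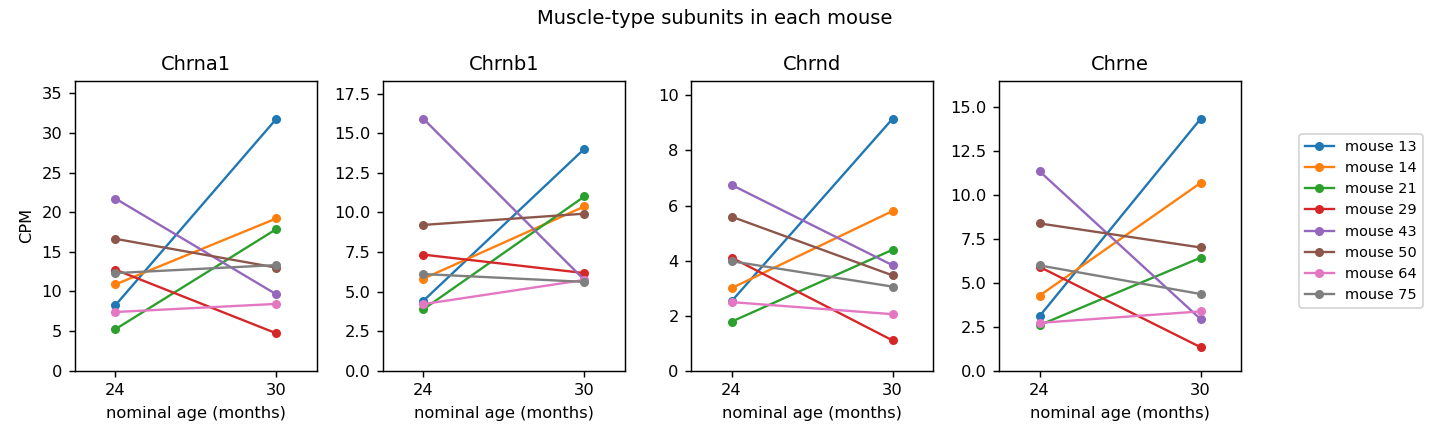
CPM of Chrna1, Chrnb1, Chrnd and Chrne at nominally 24 and 30 months, 1 line per mouse, axes starting at 0. The lines of mice 13, 14 and 21 run upwards in all 4 panels and those of mice 29 and 43 downwards in all 4.

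The 250 bases before the RefSeq start are shown for Chrna1, Chrnb1 and Chrne because their levels went with those of the skeletal muscle markers, as described after them. They are from build GRCm38.p6, all on the minus strand, with E-boxes (CANNTG) in capitals as above: chr2:73580339-73580588 for Chrna1, chr11:69795938-69796187 for Chrnb1 and chr11:70619195-70619444 for Chrne.
Chrna1: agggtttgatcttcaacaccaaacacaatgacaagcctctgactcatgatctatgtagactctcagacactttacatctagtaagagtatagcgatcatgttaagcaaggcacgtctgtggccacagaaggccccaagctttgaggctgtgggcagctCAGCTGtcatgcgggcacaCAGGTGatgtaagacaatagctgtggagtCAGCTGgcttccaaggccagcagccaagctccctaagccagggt
Chrnb1: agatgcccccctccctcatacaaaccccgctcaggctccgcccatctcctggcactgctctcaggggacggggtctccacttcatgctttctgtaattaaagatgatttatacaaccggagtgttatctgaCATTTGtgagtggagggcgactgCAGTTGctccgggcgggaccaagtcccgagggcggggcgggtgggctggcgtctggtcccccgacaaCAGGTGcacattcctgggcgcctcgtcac
Chrne: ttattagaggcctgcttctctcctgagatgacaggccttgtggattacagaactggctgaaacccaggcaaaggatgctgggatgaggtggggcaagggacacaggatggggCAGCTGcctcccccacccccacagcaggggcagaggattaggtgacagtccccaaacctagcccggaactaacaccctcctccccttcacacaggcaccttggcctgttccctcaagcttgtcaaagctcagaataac
Chrna1 held 3 E-boxes, beginning 92, 73 and 44 bases before the start, of which the first and the last were CAGCTG. Chrnb1 held 3, at 119, 96 and 29 bases, and 4 GC boxes. At least 3 E-boxes were found in 12.2% of all windows. Chrne held 1 E-box, a CAGCTG 138 bases before the start, and 1 N-box (CCGGAA on either strand), a motif known from genes active at the synapse, 76 bases before it; N-boxes were found in 12% of all windows. No sequence is shown for Chrnd. A match describes letters in this window and not a bound site.

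The muscle-type subunits were set beside the 20 skeletal muscle markers. The summed level of the markers was 1560 to 17390 CPM at 24 months (median 3173) and 2383 to 13350 CPM at 30 months (median 5732). The mean of their log2 levels, and not the sum, changed within mice by 0.75 ± 2.06 (SD, n = 8) and was higher in 6 of 8 mice. All 20 markers had a higher fitted value at 30 months, and 0 passed edgeR's test, 0 also at an unadjusted p under 0.05, and 0 passed DESeq2's. Over all genes tested, edgeR called 0%, 4.86% had a higher value at an unadjusted p under 0.05, and DESeq2 called 1.38%. Nothing is read from these counts of 0. Over the 16 libraries the Pearson correlation of the log2 level with the mean log2 level of the markers was 0.98 for Chrnb1 (Spearman 0.93), 0.83 for Chrna1 (0.87), 0.83 for Chrne (0.89) and 0.73 for Chrnd (0.78). Without the 2 libraries farthest from the median of the markers these were 0.96, 0.76, 0.75 and 0.59. Within the 24-month libraries they were 0.99, 0.93, 0.97 and 0.95, and within the 30-month libraries 0.96, 0.79, 0.86 and 0.68. The changes within mice went with those of the markers in the same way, with a Pearson correlation over 8 mice of 0.99 for Chrnb1, 0.91 for Chrne, 0.88 for Chrna1 and 0.78 for Chrnd. The muscle markers thus moved with these subunits between mice, and their part in each subunit's level was not tested. Chrnb4 and Chrna3 had values of -0.18 and -0.60 with the muscle markers over the 16 libraries.

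The subunits spanned less than the mean of the muscle list, 2.01 log2 units for Chrnb1, 2.73 for Chrna1, 2.98 for Chrnd and 3.35 for Chrne against 3.89. This does not hold for each marker. Single markers spanned from 5.79-fold (Myh2) to 324-fold (Actn3) in CPM, and some, such as Myh1 at 9.99-fold, spanned less than Chrne at 10.7-fold. The slope of the log2 level on that of the list was 0.49 for Chrnb1, 0.50 for Chrna1, 0.45 for Chrnd and 0.61 for Chrne.

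One library lay away from this relation. At 30 months mouse 29 had 3176 CPM of muscle markers and 6.17 CPM of Chrnb1, close to the 3664 and 6.11 CPM of mouse 75 at 24 months, but the lowest levels of Chrna1, Chrnd and Chrne of all 16 libraries, at 4.72, 1.10 and 1.34 CPM. The per-length ratio of Chrna1 to Chrnb1, with a median of 1.01, was at its minimum of 0.442 there. The same library had the highest level of Trim63, a ubiquitin ligase, at 35.2 CPM, and the lowest of Colq, the collagen tail that anchors the esterase at the junction, at 0.965 CPM. Trim63 is 1 of 12 listed denervation-responsive genes, and the others were not described for this library, so no state of the muscle is read from it. The esterase gene Ache was also at its lowest of the 16 libraries there, at 19.0 CPM. The junction organiser Erbb3 was at its highest there, at 370.4 CPM. Rapsn, Dok7 and Musk were not at their lowest in that library. Rapsn, which clusters the receptor, was 1.42 and 1.41 CPM at 24 and 30 months in mouse 29. In the same mouse Dok7 was 4.11 and 5.62 CPM and Musk 3.26 and 2.62 CPM. Trim63, Rapsn, Dok7 and Musk were picked after their values were seen. This is also the library with the most fat cell RNA. With it left out, which was done after its values were seen, the correlation with the muscle markers was 0.89 for Chrna1, 0.82 for Chrnd, 0.92 for Chrne and 0.98 for Chrnb1.

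**Figure D5:**
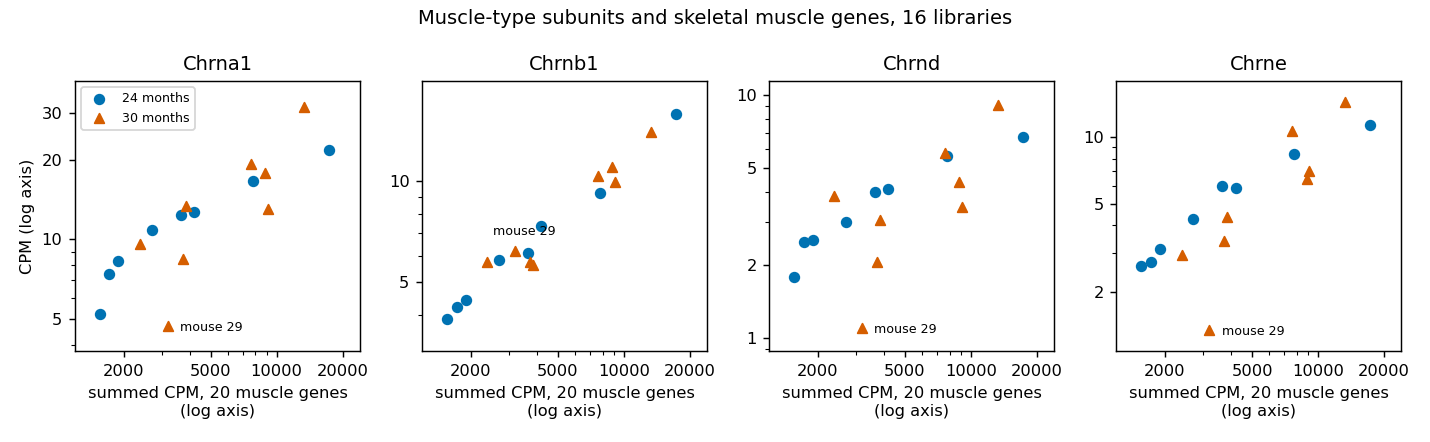
CPM of each muscle-type subunit (vertical, log axis) against the summed CPM of 20 skeletal muscle genes (horizontal, log axis), 1 point per library, blue circles for 24 months and orange triangles for 30 months. Chrnb1 follows the muscle genes most closely, and mouse 29 at 30 months lies below the others for Chrna1, Chrnd and Chrne, at 4.72, 1.10 and 1.34 CPM.

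Over the 16 libraries Chrna1, Chrnd and Chrne were more alike among themselves than any of them was to Chrnb1, and this showed mainly at 30 months. The Pearson correlation over the 16 libraries was 0.96 for Chrna1 with Chrnd, 0.96 for Chrna1 with Chrne and 0.94 for Chrnd with Chrne, and Chrnb1 had 0.85, 0.78 and 0.83 with Chrna1, Chrnd and Chrne. In the same order, the values within the 24-month libraries were 0.99, 0.97 and 0.98, and 0.95, 0.95 and 0.97 for Chrnb1. Within the 30-month libraries, which hold that of mouse 29, they were 0.96, 0.96 and 0.92, and 0.81, 0.75 and 0.84 for Chrnb1. The 5 genes most like Chrne were Lmod3, Clcn1, Colq, Ak1 and Chrna1, at 0.97, 0.96, 0.96, 0.96 and 0.96, and these values within the 24-month and the 30-month libraries were 0.91 to 0.99.

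No gene of the junction and denervation lists passed the test, 0 at an unadjusted p under 0.05 in edgeR and 0 with DESeq2. Over all genes tested, edgeR called 0%, and 7.18% had a lower and 4.86% a higher value at an unadjusted p under 0.05. DESeq2 called 1.38% of its genes. In lists this small nothing is read from the counts of 0. All 10 organisers of the neuromuscular junction were tested, 6 with a higher and 4 with a lower fitted value and a median log2 fold change of 0.07. Lrp4 and Agrn, the receptor and the ligand that gather nicotinic receptors at the synapse and that are also made in other tissues, had log2 fold changes of -0.18 ± 0.10 (edgeR adjusted p = 0.497) and -0.14 ± 0.08 (adjusted p = 0.497), and Erbb3 had 0.03 ± 0.12 (adjusted p = 0.938). The 12 denervation-responsive genes had 7 higher and 5 lower fitted values and a median of 0.04. The largest was that of Trim63, at 1.16 ± 0.57 (edgeR adjusted p = 0.444), which was higher at 30 months in 7 mice and lower in 1. The developmental myosins Myh3 and Myh8 had log2 fold changes of 0.39 ± 0.52 (adjusted p = 0.777) and 0.60 ± 0.50 (adjusted p = 0.64), and the ubiquitin ligase Fbxo32 0.20 ± 0.23 (adjusted p = 0.729).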

How the data were processed

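RNA was sequenced from ear clips of 8 mice at 2 nominal ages (TruSeq RNA v2, 50 nt single-end reads). The labels' processing notes name CASAVA 1.8.4, TopHat2 2.1.0, HTSeq 0.6.1p1 and mm10. The authors deposited unnormalized read counts for each gene in each library, and the strand setting is not given in the sources used here. The 5 summary lines that name no gene (18.7% to 21.1% of the reads) were left out. Symbols, positions and exon lengths came from GENCODE M21 (GRCm38, 45143 of 45706 genes matched), promoters from RefSeq (9 of 10 members matched).

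Counts were tested with edgeR 4.0.16 (R 4.3.3; TMM, filterByExpr, quasi-likelihood, a block for each mouse, Benjamini-Hochberg threshold 0.05) over all genes. DESeq2 1.42.0, other scalings, no filter, no block and each mouse left out were alternatives. The pairs come from the same animals; the correlation of paired deviations from the age means was -0.43 to 0.32. Log2 CPM used a prior count of 2. Remaining values were computed in Python 3.11.15. On simulated data with 200 of 21526 genes changed 2-fold, the fit called 137 of them with the true sign, along with 7 that were not changed. The simulated counts held no difference between mice and no shift shared by genes of a cell type. They therefore do not give the power of the fit in these libraries. Genes were named by rule (the members, the 3 highest of each related list and the 5 genes most like Chrne and Chrnb4); Hykk, Lypd6, Trim63, Rapsn, Dok7, Musk, Chrm5, Chat, Slc18a3, Slc5a7, Chrna6, Chrnb3 and single cell type markers fall outside it and were picked after their values were seen. Members and lists were chosen with earlier results of these data known. The value of 1 marker gene is not reported here.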

Additional observations from a re-analysis of the deposited data

Results flagged for a closer look

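In 27 groups of 8 values (the CPM of each of the 10 subunits at each age and the within-mouse change of the 7 fitted ones), 2 held a value whose gap to its nearest neighbour exceeded the share of the range that Dixon's test allows at the 95% level. Chance flags about 1 group in 20. Chrnb1 at 24 months was 15.9 CPM in mouse 43, beside 9.21 CPM in the next library, and the same library had the highest summed level of muscle markers, 17390 CPM. Chrnb2 at 30 months was 4.88 CPM in mouse 50, beside 3.61 CPM in the next library, and the same library had the highest summed levels of fibroblast, mast cell and macrophage markers, at 10670, 719.8 and 581.8 CPM. The part of these cell types in the flagged values was not tested.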

How the results depend on the processing

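The number of genes called between ages was 0 of 21526 with edgeR and ran from 0 to 0 when each mouse was left out. It was 3 without the replicate block (2 higher, 1 lower) and 240 of 17352 with DESeq2's Wald test (78 higher, 162 lower); the cause was not tested. Under DESeq2, 1 subunit (Chrnb4, from members chosen on this contrast) and 2 genes of the related lists (Tmem35a and Ache) were called, and removing the paired block changed no call among the subunits or these lists. All 84 log2 fold changes of the 7 fitted subunits under 12 alternatives lay within 1 SD of the within-mouse changes. Leaving out 1 of 8 mice can hardly move a mean by its SD, so most of these values could not have exceeded that limit. Nothing about stability is read from it. Of the 84, 8 had another sign, all from leaving out a mouse: Chrna1 and Chrnd without mouse 13 (-0.02 and -0.26), Chrnd without mice 14 and 21 (-0.14 and -0.18), Chrne without mice 13, 14 and 21 (-0.24, -0.14 and -0.12) and Chrnb2 without mouse 50 (-0.03). Mean RPKM scaled by total counts kept the order of the 10 subunits. Among related genes with fold changes near 0, Ireb2 turned to 0.0052 with DESeq2 size factors and with DESeq2. Leaving out each mouse, Ireb2 ran from -0.0532 to 0.0309, Slc44a1 from -0.0154 to 0.053, Erbb3 from -0.0742 to 0.0963 and Slurp2 from -0.0073 to 0.0928. The depth limits Chrng, Chrna5 and Chrna7, with at most 11 reads in a library, to counts.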

Other observations

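Chrnb4 was lower at 30 months in every mouse. Over the 8 mice its log2 change had a Pearson correlation of 0.78 (Spearman 0.86) with the change of the 20 muscle markers, whereas the levels over the 16 libraries had -0.18. The muscle markers were picked after the values for 15 marker lists were seen. The change of the macrophage markers had a value nearly as far from 0, -0.72 (Spearman -0.69), and the pigment cell and neuron markers had 0.51 and 0.50. All values of a mouse share the scaling of its libraries, and these relations were not tested. Chrnb2 and Chrnb4 had a Pearson correlation of 0.68 within the 24-month libraries and -0.71 within the 30-month libraries, each over 8 libraries, with mouse 50 at the high end of Chrnb2 and the low end of Chrnb4 at 30 months. Chrm5, a muscarinic receptor picked after its values were seen, was lower at 30 months in 7 of 8 mice, at 0.942 ± 0.156 CPM and 0.617 ± 0.200 CPM (mean ± SD, n = 8), with an edgeR adjusted p of 0.297.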
